A study of Mus musculus with 9 samples.

Results

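Ceacam10, Trpv6, Kirrel, Cldn23, Slco5a1 and Cys1 are 6 genes that stood below 5 CPM on average in control direct-pathway neurons of the mouse striatum and were higher after deletion of TrkB. They were chosen by 2 readouts of these libraries, a mean below 5 CPM in the 3 controls and a higher mean in both TrkB-deleted groups. The levels in control and deleted groups are therefore given as a description, with no test. All 6 met the rule, out of 47729 genes listed. Of the listed genes 4598 met it in all, and of these 1176 were protein coding and passed the filter on low values, which was 1 CPM in at least 3 libraries. CPM are the reads of a gene per 1000000 reads of its library.

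The libraries hold RNA precipitated with hemagglutinin-tagged ribosomes (RiboTag) from the dorsal part of the striatum, taken at P28 (postnatal day 28) in C57BL/6 animals. The control group, D1-Cre-RT, carried Cre recombinase driven by the D1 dopamine receptor gene and the RiboTag allele. The 2 other groups, D1-Cre-flTrkB-RT, carried the same Cre and tag together with floxed TrkB, and were split by behavior into mice with stereotypy and mice without. Each group had 3 libraries, described as biological triplicates, and all 3 groups share the Cre and the tag. The labels give no sex and do not say how many animals entered a library, and no RNA from before precipitation was analysed here. In such precipitates of bulk tissue, a change in the number of tagged cells and a change in RNA per cell cannot be told apart.

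TrkB, encoded by Ntrk2, is the receptor tyrosine kinase for brain-derived neurotrophic factor and signals through the MAP kinase, PI3 kinase and phospholipase C pathways. D1 medium spiny neurons are the direct-pathway output cells of the striatum. The 6 genes belong to families with known roles in epithelia, though not only there. They are a carcinoembryonic antigen-related adhesion gene, a calcium-selective channel and a partner of nephrin. The others are a claudin, an organic anion transporter relative and the cilium protein cystin.

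The libraries held 27103152 to 40578512 reads, and log2 levels within a group correlated across tested genes at 0.980 to 0.995 (Pearson). For a gene without a read, the limit set by 3 reads was 0.0739 to 0.111 CPM depending on the library (counting error only). The targeted gene Ntrk2 averaged 397 ± 84.8 CPM in control libraries, against 39.6 ± 4.85 CPM in the stereotypy group and 18.9 ± 4.67 CPM in the other deleted group (SD, n = 3 each). All 3 groups showed the D1 marker Drd1 at high level, with means of 805, 887 and 599 CPM.

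Ceacam10 (ENSMUSG00000054169, GRCm38 chromosome 7, 24777206 to 24784657) is an immunoglobulin-superfamily member of the carcinoembryonic antigen family. It had 10, 15 and 5 reads in the 3 controls, or 0.274, 0.424 and 0.153 CPM. With stereotypy it had 275, 344 and 193 reads, or 9.85, 11.1 and 7.12 CPM. Without stereotypy it had 382, 250 and 257 reads, or 9.87, 7.0 and 6.33 CPM. No control library reached 1 CPM and every deleted library exceeded 6 CPM, so the lowest deleted library was 14.9 times the highest control. The group means were 0.284 ± 0.136, 9.34 ± 2.02 and 7.74 ± 1.88 CPM (SD, n = 3 each), which is 32.9-fold and 27.3-fold over control. The 30 control reads put the pooled control level between 0.194 and 0.410 CPM (exact Poisson 95% interval, counting error only). Ceacam10 passed the filter on low values through the deleted libraries alone. On the log2(CPM + 1) scale its mean difference from control, 2.87, ranked 1 from the top of the 13695 tested genes. That place is a description, since the rule used this contrast.

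The DNA just before the start of Ceacam10 is shown because this gene had the lowest level of the 6 in the controls. That of Trpv6 and Cys1, which follow below, is set beside it, since the control levels of the 3 genes differ. The 250 bases before the RefSeq start (GRCm38.p6) are printed on the strand of the gene, with matches to the searched motifs in capitals: chr7:24776954-24777203 (+) for Ceacam10, chr6:41636406-41636655 (-) for Trpv6 and chr12:24681796-24682045 (-) for Cys1.
Ceacam10: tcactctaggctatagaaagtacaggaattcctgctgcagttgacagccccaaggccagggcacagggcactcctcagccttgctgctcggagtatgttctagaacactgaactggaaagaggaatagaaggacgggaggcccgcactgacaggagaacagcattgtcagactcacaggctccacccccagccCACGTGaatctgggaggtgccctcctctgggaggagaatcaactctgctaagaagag
Trpv6: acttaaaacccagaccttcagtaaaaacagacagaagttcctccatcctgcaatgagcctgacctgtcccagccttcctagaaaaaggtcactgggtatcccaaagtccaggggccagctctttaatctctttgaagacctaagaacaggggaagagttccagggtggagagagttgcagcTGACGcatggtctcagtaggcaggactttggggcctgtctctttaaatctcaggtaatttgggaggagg
Cys1: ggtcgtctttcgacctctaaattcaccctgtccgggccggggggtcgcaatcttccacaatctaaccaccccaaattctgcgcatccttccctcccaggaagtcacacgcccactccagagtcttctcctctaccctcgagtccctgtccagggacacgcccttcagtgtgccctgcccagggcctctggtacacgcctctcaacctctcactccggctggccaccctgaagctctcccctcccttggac

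Of the 6 genes 4 had an entry among the RefSeq promoters, the fourth being Kirrel, whose RefSeq start lies 210 bases inside the GENCODE gene and whose window is not printed. The windows were searched on both strands for the cAMP response element TGACGTCA, its shorter core TGACG (which lies within it), the AP-1 site TGAGTCA, the Egr sites GCGTGGGCG and GCGGGGGCG, the GC box GGGCGG, the TATA box TATAAA and the E-box CACGTG. Ceacam10 held the E-box CACGTG, with its first base 57 bases before the start, which 6.02% of 32817 promoters of the same length hold. Trpv6 held TGACG, first base 69 bases before the start, and Kirrel held its reverse complement CGTCA, 177 bases before. The core TGACG was found in 17.7% of promoters. None of the 4 windows held a whole cAMP response element (1.55% of promoters), an AP-1 site (4.46%), an Egr site (3.06%), a GC box (32.7%) or a TATA box (12.4%). Cys1 held no searched motif. Base composition differed between them, with 1 CpG and 49.6% G + C in Trpv6, 4 CpGs and 55.2% in Ceacam10, 11 and 61.2% in Cys1, and 24 and 68.8% in Kirrel, against medians of 6 CpGs and 52.4% over all promoters.

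Trpv6 (ENSMUSG00000029868, chromosome 6, 41620624 to 41636405) encodes a calcium-selective TRP channel known for calcium uptake in gut and kidney epithelium. The controls had 2.6, 1.27 and 0.828 CPM, from 95, 45 and 27 reads. Levels were 8.34, 8.52 and 5.79 CPM with stereotypy and 11.6, 8.63 and 7.12 CPM without. Its controls spread the most of the 6 genes, with a coefficient of variation of 58.8%, yet the lowest deleted library was still 2.23 times the highest control. Trpv6 averaged 1.57 ± 0.922 CPM in control, 7.55 ± 1.52 in stereotypy and 9.11 ± 2.27 in no-stereotypy libraries (SD, n = 3 each), or 4.82-fold and 5.81-fold. Of the 6 genes only Ceacam10 and Trpv6 had control libraries below 1 CPM, 3 and 1 of them.

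Kirrel (Neph1, ENSMUSG00000041734, chromosome 3, 87078593 to 87174747) is an immunoglobulin-superfamily adhesion protein that pairs with nephrin at the kidney slit diaphragm. The controls stood at 1.92, 3.0 and 2.58 CPM. With stereotypy the libraries stood at 9.24, 13.9 and 8.15 CPM and without at 12.5, 11.5 and 8.70 CPM. The 2 deleted groups covered nearly the same range, 8.15 to 13.9 and 8.70 to 12.5 CPM. Means were 2.5 ± 0.546, 10.4 ± 3.06 and 10.9 ± 1.98 CPM (SD, n = 3 each), that is 4.18-fold and 4.37-fold over control.

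Cldn23 (ENSMUSG00000055976, chromosome 8, 35824712 to 35826559) is a claudin, of the family that seals tight junctions. Its control libraries had 3.23, 3.25 and 2.58 CPM. The stereotypy libraries had 12.4, 15.2 and 10.7 CPM and the remaining deleted ones 19.9, 12.5 and 16.5 CPM. Its lowest deleted library was 3.28 times its highest control. The mean of 3.02 ± 0.385 CPM became 12.8 ± 2.27 and 16.3 ± 3.70 CPM (SD, n = 3 each), a fold of 4.22 and 5.39. The deleted groups overlapped, and no stereotypy replicate 1 was the highest of the 9 libraries.

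Slco5a1 (ENSMUSG00000025938, chromosome 1, 12866549 to 12992650) belongs to the organic anion transporter family. Its controls lay at 3.01, 3.59 and 3.25 CPM, its stereotypy libraries at 11.7, 14.9 and 9.74 CPM and the libraries without stereotypy at 10.7, 11.3 and 10.7 CPM. It was the steadiest of the 6 without stereotypy, with a coefficient of variation of 2.98%, against 21.7% with stereotypy. Means of 3.28 ± 0.293, 12.1 ± 2.63 and 10.9 ± 0.324 CPM (SD, n = 3 each) gave 3.69-fold and 3.31-fold over control.

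Cys1 (ENSMUSG00000062563, chromosome 12, 24665833 to 24681813) encodes cystin, a cilium-associated protein whose loss causes polycystic kidneys in mice. Its control libraries had 3.5, 4.27 and 4.48 CPM. The stereotypy libraries had 10.7, 10.8 and 8.82 CPM and those without stereotypy 16.2, 15.3 and 14.1 CPM. The 3 groups did not overlap, with stereotypy between the control and the group without stereotypy. The means were 4.08 ± 0.513, 10.1 ± 1.14 and 15.2 ± 1.06 CPM (SD, n = 3 each), 2.48-fold and 3.72-fold over control.

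**Figure D1:**
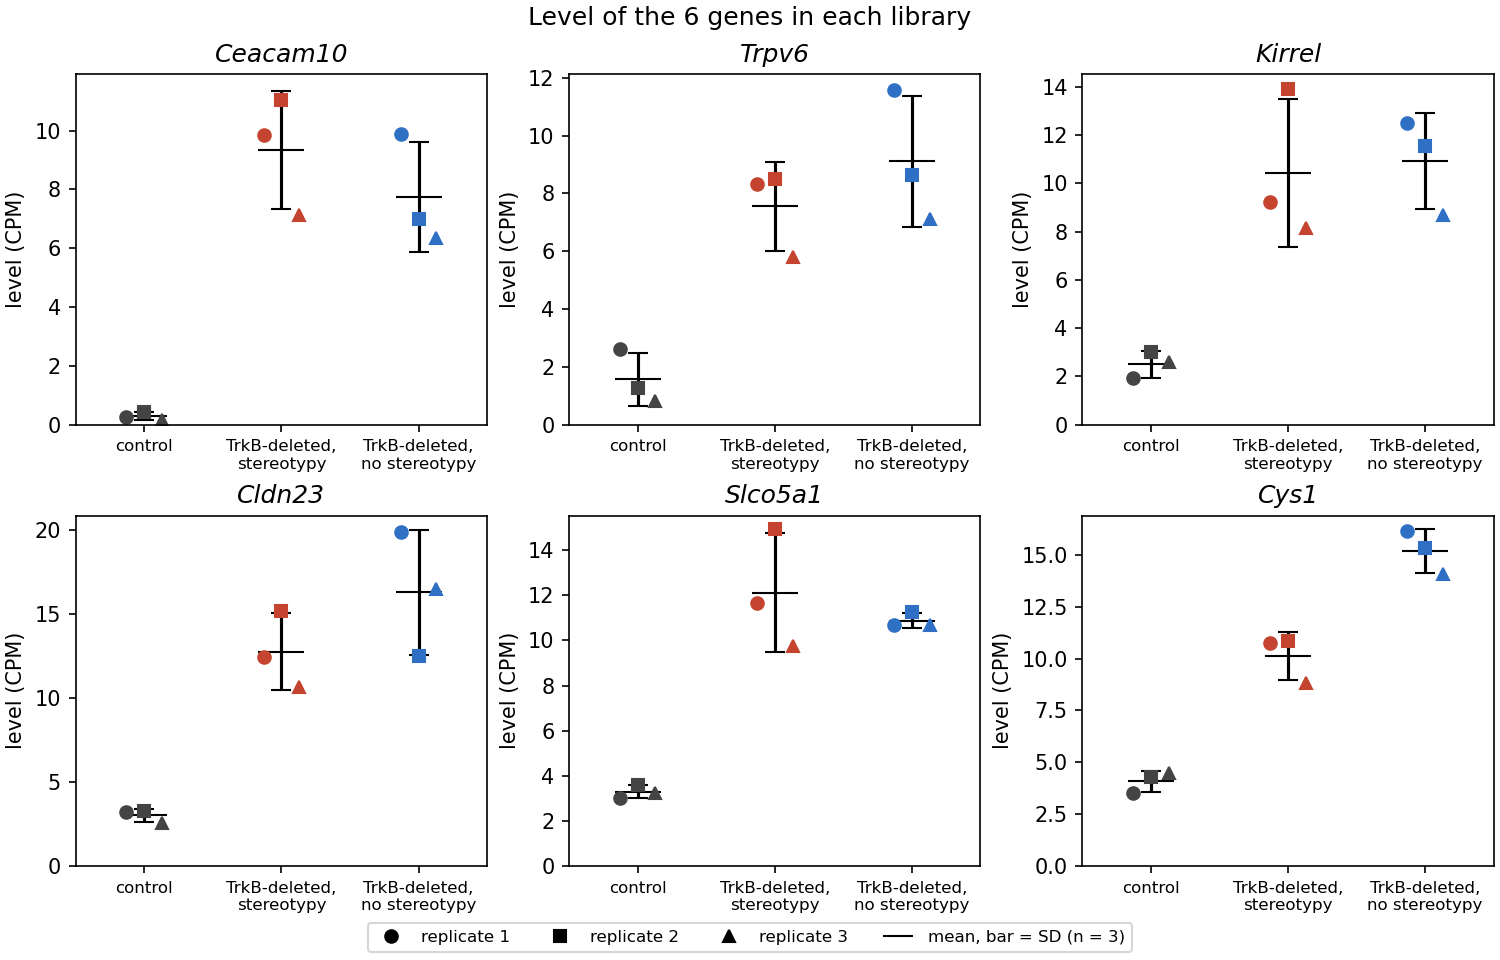
Level in CPM (vertical axis, starting at 0) of each of the 6 genes in the 9 libraries, by group (horizontal axis). Symbols mark the replicate number, horizontal lines the mean and bars the SD (n = 3). In every panel the 6 deleted libraries sit above the 3 controls, and the deleted groups separate from each other only for Cys1.

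For all 6 genes every deleted library lay above every control, which held for 6.05% of the 13695 tested genes. The 6 genes were chosen on this contrast, in which limma called 5.72% of tested genes, so nothing is read from that count. The summed CPM of the 6 genes was 14.7 ± 0.994 in control, 62.3 ± 12.1 in stereotypy and 70.1 ± 9.27 in no-stereotypy libraries (SD, n = 3 each). Against all tested genes, whose median log2 difference was 0.04, the 6 differences from control were 2.87 for Ceacam10, 1.93 for Cldn23, 1.90 for Trpv6, 1.73 for Kirrel, 1.54 for Slco5a1 and 1.40 for Cys1. Among the 1176 tested protein-coding genes that met the rule these were places 1, 3, 4, 5, 9 and 14. The places rest on the contrast by which the 6 genes were chosen, so they are a description only. The control mean closest below 5 CPM among protein-coding genes that rose in limma was that of Hs3st1, a heparan sulfate sulfotransferase, at 4.98 CPM with 9.19 and 11.1 CPM in the deleted groups. The closest above was Fgd4, a Cdc42 exchange factor, at 5.005 CPM with 11.04 and 8.57 CPM.

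**Figure D2:**
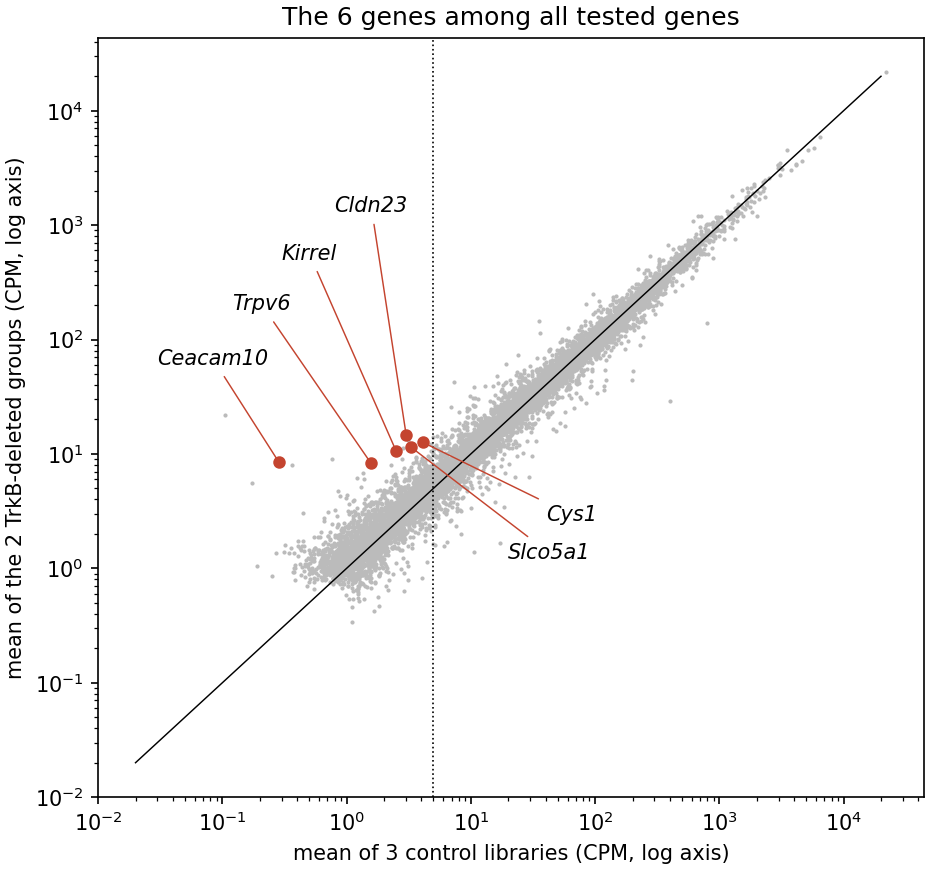
Mean of the 2 deleted groups (vertical, CPM, log axis) against the mean of the 3 controls (horizontal, CPM, log axis) for tested genes with both means above 0, with the 6 genes in red. The solid line marks equal levels and the dotted line 5 CPM. The 6 genes lie left of the dotted line and above the band, with Ceacam10 the farthest left of the 6 at 0.284 CPM.

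Per kilobase of exon, which allows levels of different genes to be compared, Cldn23 led in the controls at 1.63 ± 0.208 CPM per kilobase, followed by Cys1 at 1.38 ± 0.174, and the gap between them was smaller than the sum of their SDs. Trpv6 (0.398 ± 0.234), Kirrel (0.335 ± 0.0731), Slco5a1 (0.25 ± 0.0223) and Ceacam10 (0.190 ± 0.0908) followed, each within the summed SDs of the next. With stereotypy the order on this scale was Cldn23 (6.90 ± 1.23), Ceacam10 (6.24 ± 1.35), Cys1 (3.43 ± 0.385), Trpv6 (1.92 ± 0.387), Kirrel (1.4 ± 0.41) and Slco5a1 (0.923 ± 0.200). Without it the order was the same, with Cldn23 at 8.8 ± 2.0, Ceacam10 at 5.17 ± 1.26 and Cys1 at 5.15 ± 0.360, the last pair closer than their spread. Ceacam10 thus had the lowest level per kilobase of the 6 in the controls and the second place in the deleted groups.

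The difference between the deleted groups was not used to choose the genes and was tested with limma over all 13695 genes. Cys1 was lower in the stereotypy group (log2 difference -0.54, SE 0.14, 95% interval -0.85 to -0.24, limma adjusted p = 0.0364), and all 3 stereotypy libraries lay below all 3 no-stereotypy libraries, as in 17.5% of tested genes. The opposite order, shown by 20.8% of tested genes, was seen for 0 of 6. The remaining 5 genes did not pass. Cys1 was thus 1 of 6 genes called, where 10.2% of all tested genes were called in either direction, 6.61% as higher and 3.6% as lower with stereotypy. The higher share of these calls was 64.7%, and 49.8% with median-of-ratios rescaling. The share called rests on few libraries: of 1398 genes, 0 were called without stereotypy replicate 3, no stereotypy replicate 1 or its replicate 2, and 1 without stereotypy replicate 2. Ceacam10 differed by 0.24 (95% interval -0.20 to 0.69, limma adjusted p = 0.440) and Slco5a1 by 0.12 (-0.22 to 0.47, adjusted p = 0.635). Kirrel differed by -0.0778 (-0.54 to 0.39, adjusted p = 0.839), Trpv6 by -0.23 (-0.81 to 0.34, adjusted p = 0.579) and Cldn23 by -0.32 (-0.73 to 0.0897, adjusted p = 0.274). These intervals leave room for a difference of up to 0.47 to 0.81 in at least one direction, so they do not show equal levels.

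The call of Cys1 was lost when any of 5 single libraries was left out, namely stereotypy replicate 1 (adjusted p = 0.0604), 2 (0.0824) or 3 (0.133) and no stereotypy replicate 1 (0.128) or 2 (0.109), while its log2 difference stayed between -0.60 and -0.46. It was also lost without the filter on low values (0.0746) and with a covariate of glial and vascular markers (0.389, log2 difference -0.65). The adjusted p for Cys1 covered 0.00409 to 0.389 across the alternatives. Markers of other neurons moved with this difference. The summed level of 7 cortical excitatory markers was 168 to 299 CPM with stereotypy and 598 to 1447 CPM without, and that of 5 D2 medium spiny neuron markers 259 to 424 and 597 to 1050 CPM. In the controls, where Cys1 was lowest, these sums were 279 to 861 and 443 to 1433 CPM. Markers of the tagged cells also separated the deleted groups, in the direction opposite to Cys1: 9 D1 medium spiny neuron markers summed to 2349 to 2446 CPM with stereotypy and 1580 to 1954 CPM without, against 1902 to 2576 CPM in the controls. The targeted gene Ntrk2 separated them in the same direction as the D1 markers. It stood at 34.3, 43.9 and 40.7 CPM with stereotypy and at 23.4, 14.1 and 19.2 CPM without. The part of Ntrk2 and of these markers in the Cys1 difference was not tested.

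**Figure D3:**
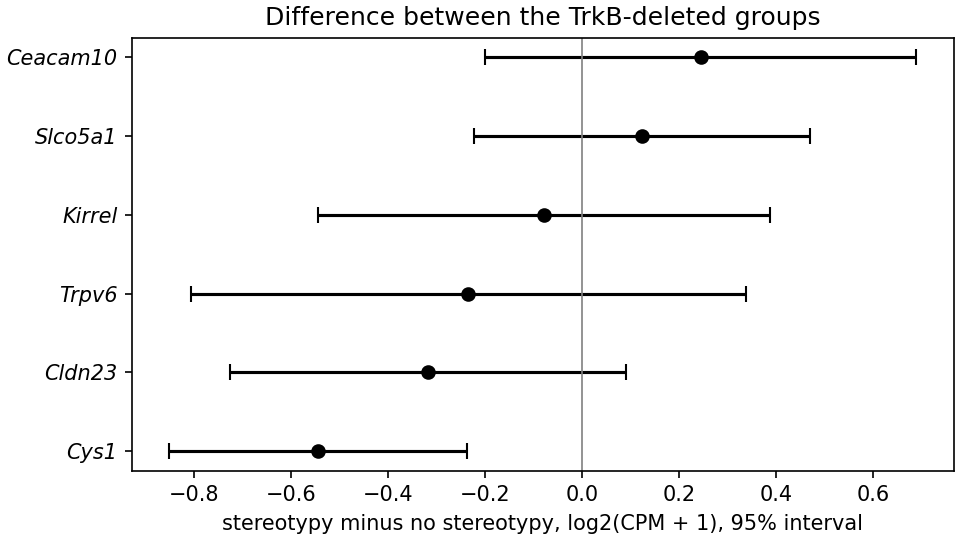
Stereotypy minus no stereotypy on the log2(CPM + 1) scale (horizontal) for the 6 genes (vertical), with limma's 95% intervals over 3 libraries a group. The interval of Cys1, -0.85 to -0.24, lies below 0, and the other 5 intervals include 0.

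The libraries of a group also kept an order across the 6 genes. In the stereotypy group replicate 2 was the highest and replicate 3 the lowest for 6 of 6 genes, an order shown by 18.5% of all tested genes. After median-of-ratios rescaling it still held for 6 of 6, against 14.6% of tested genes. Without stereotypy, replicate 1 was the highest for 5 of 6 genes (29.6% of tested genes), the exception being Slco5a1. The controls showed no common order: replicate 2 was the highest for 4 genes, replicate 1 for Trpv6 and replicate 3 for Cys1. Over the 9 libraries the pairwise Pearson r of the log2 levels lay between 0.912 and 0.988 (15 pairs), values that mostly repeat the step from control to deleted groups. For deviations from the group means the median r was 0.62, from -0.0203 to 0.84, as a description over the same 9 libraries. Stereotypy replicate 2 was also highest, at 0.579, on the component summarizing glial and vascular markers, where replicates 1 and 3 stood at 0.400 and 0.260. No stereotypy replicate 1 was likewise highest of its group on this component, at 0.0655, with replicates 2 and 3 at -0.364 and -0.0204. Control replicate 2, the highest control for 4 genes, went the other way and was the lowest control on it, at -0.416. The part of those markers in the order was not tested.

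**Figure D4:**
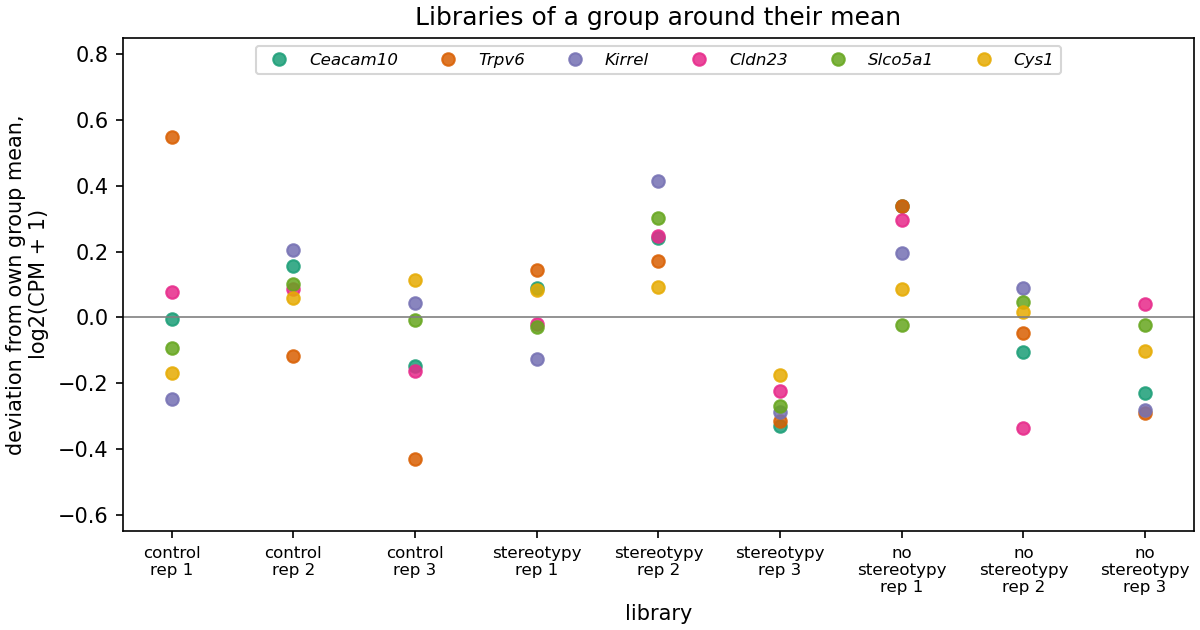
Deviation of each library from the mean of its own group on the log2(CPM + 1) scale (vertical) for the 6 genes (colors) in the 9 libraries (horizontal). In stereotypy replicate 2 all 6 points lie above 0 and in stereotypy replicate 3 all 6 lie below 0.

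Since the 6 genes belong to families with known roles in epithelia, markers of the epithelial cells next to the striatum and of other cell types were read in the same libraries. The summed level of 12 choroid plexus markers ranged from 31.7 to 51.8 CPM over controls, 35.8 to 51.8 CPM over stereotypy and 44.4 to 70.8 CPM over no-stereotypy libraries. Most of that sum is Clic6, at 23.3, 23.5 and 22.6 CPM on average in the 3 groups, and Enpp2, at 17.7, 16.9 and 30.9 CPM. Kl followed at 3.13, 3.44 and 2.37 CPM, so the sum mainly reports these genes. The transthyretin gene Ttr, which defines that tissue, averaged 0.0299, 0.488 and 3.91 CPM, the last mean resting on 11.2 CPM in replicate 1, and Folr1, Kcnj13, Otx2, Kcne2, Aqp1, Prlr, Slc4a5 and F5 stood below 0.23 CPM in every group mean. Ependymal markers (9 genes) summed to 5.43 to 7.39, 5.30 to 7.19 and 6.41 to 7.11 CPM in the 3 groups, so the ranges overlapped. The 12 astrocyte markers gave sums of 297 to 334 CPM over controls, 470 to 508 CPM over stereotypy and 296 to 332 CPM over no-stereotypy libraries. Most of that sum is Slc4a4, a bicarbonate transporter gene, at 275, 394 and 253 CPM on average. Without Slc4a4 the other 11 astrocyte markers summed to 41.7 to 47.6, 79.3 to 104.9 and 53.8 to 77.7 CPM, so both deleted groups lay above the controls, as did the 6 genes. Of these 11 markers 10 had a higher mean without stereotypy than in control. In limma, for both deleted groups against control, 4 of the 12 astrocyte markers rose and 0 fell. Of all tested genes 3.67% rose and 2.05% fell. In the same contrast 1 of 10 tested microglia markers rose and 1 of 12 tested vascular markers fell. Of the oligodendrocyte markers 0 of 12 passed, and of the precursor markers 0 of 5 tested. Vascular markers (14 genes) summed to 23.2 to 49.6, 47.8 to 109.8 and 14.5 to 31.4 CPM. Without Tagln, a smooth muscle gene at 17.2, 1.82 and 1.54 CPM on average, the other 13 summed to 13.6 to 36.0, 46.0 to 107.8 and 12.97 to 29.9 CPM. Microglia markers (10 genes) summed to 16.8 to 33.4, 37.7 to 45.9 and 21.9 to 29.7 CPM. Oligodendrocyte markers (12 genes) ranged widely, from 596 to 1256, 1227 to 2185 and 788 to 1809 CPM, and precursor markers (6 genes) from 9.99 to 18.4, 17.7 to 24.6 and 14.2 to 25.4 CPM. With the glial and vascular covariate the log2 difference from control was 2.53 for Ceacam10, 1.55 for Kirrel, 1.52 for Trpv6, 1.38 for Cldn23 and Slco5a1 and 1.31 for Cys1. On that covariate the controls stood at -0.250, -0.416 and -0.255, and the stereotypy libraries at 0.400, 0.579 and 0.260. The libraries without stereotypy stood at 0.0655, -0.364 and -0.0204. The covariate thus moved in part with the groups, so this fit of 9 libraries cannot separate it from the deletion. The part of the cells marked by the astrocyte, oligodendrocyte, microglia and vascular lists in the levels of the 6 genes was not tested.

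Relatives of the 6 genes were then read for the same contrast, both deleted groups against control, with the 6 genes themselves left out. Over 8 lists 96 further genes were tested, of which 2 rose, 1 fell and 93 did not pass in limma, where 3.67% of all tested genes rose and 2.05% fell. At an unadjusted p under 0.05 there were 22 of the 96, against 20.4% of all tested genes. The higher share of all calls was 64.2%, and 51.3% with median-of-ratios rescaling and 46.6% with edgeR. The median log2 difference over the 96 was 0.0995, against 0.04 over all tested genes. These lists were written for this work with earlier results of these data known.

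In the 4 gene families of Ceacam10, Trpv6, Cldn23 and Slco5a1 few relatives could be tested, and 0 passed in limma, a count that the 3.67% of all tested genes that rose does not set apart. Of 14 other CEACAM genes 0 passed the filter. Ceacam1, the highest of them in CPM, stood at 0.181, 0.352 and 0.127 CPM on average in the 3 groups, and 6 were listed at 0 in all libraries. How reads shared by near-identical CEACAM copies were assigned is not given in the sources used here. Among 5 other TRPV channels 2 were tested and 0 passed (0 at an unadjusted p under 0.05). Trpv2 stood at 13.7 ± 3.42, 10.9 ± 0.253 and 14.7 ± 0.274 CPM (SD, n = 3 each), and Trpv5, the closest relative and neighbour of Trpv6, was listed at 0 in all 9 libraries. Of 28 other matched claudins 4 were tested and 0 passed (1 at an unadjusted p under 0.05), with log2 differences of 0.0309 to 0.56. Cldn12, the highest of them, stood at 65.6 ± 4.62, 73.0 ± 8.65 and 61.9 ± 6.32 CPM (SD, n = 3 each). Of 14 other organic anion transporter genes 5 were tested and 0 passed (1 at an unadjusted p under 0.05), and Slco3a1 stood at 30.2 ± 3.94, 24.2 ± 3.33 and 30.0 ± 1.73 CPM (SD, n = 3 each).

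The nephrin family and its partners gave 13 tested genes beside Kirrel, of which 0 passed (6 at an unadjusted p under 0.05, median log2 difference -0.0578). Kirrel3, a paralog chosen after its values were seen, had 57.1 ± 14.9, 48.4 ± 7.02 and 54.6 ± 13.5 CPM (SD, n = 3 each), or 8.85, 7.50 and 8.46 CPM per kilobase in the 3 groups, where Kirrel had 0.335, 1.4 and 1.46. Kirrel2, chosen likewise, stood at 1.04 ± 0.213, 0.693 ± 0.167 and 1.07 ± 0.263 CPM. Synpo, the actin-associated synaptopodin, had the highest CPM of the list and a log2 difference of -0.12 (limma adjusted p = 0.531). Partners of the cilium and cystic kidney list, to which Cys1 belongs, gave 40 tested genes, of which 0 passed (5 at an unadjusted p under 0.05, median 0.11, range -0.31 to 0.71). Tight junction partners rose in 1 of 19 and fell in 0 (6 at an unadjusted p under 0.05, median 0.15). That gene was Patj, a polarity scaffold of tight junctions, at 3.40 ± 0.570, 6.28 ± 1.18 and 6.2 ± 0.691 CPM (SD, n = 3 each), with a log2 difference of 0.72 (SE 0.15, limma adjusted p = 0.0188). Patj no longer passed when control replicate 1 (0.0639) or 3 (0.0618) was left out, without the filter (0.0794) and with the glial and vascular covariate (0.955). Its log2 difference was 0.62 to 0.81 without single libraries and 0.52 with the covariate.

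In the epithelial calcium transport list of Trpv6, 1 gene rose and 1 fell of 13 tested (3 at an unadjusted p under 0.05, median -0.0641). The gene that rose was Vdr (chromosome 15, 97854425 to 97910630), the nuclear vitamin D receptor, for which Trpv6 is a known target in gut. Of the same list, Cyp24a1 averaged 0.00943, 0.0321 and 0 CPM in the 3 groups, below the filter, and S100g was listed at 0. Rxra did not pass (log2 difference -0.13, limma adjusted p = 0.462). The part of Vdr in the level of Trpv6 was not tested. Vdr levels were 1.42, 0.481 and 0.736 CPM (control), 5.51, 4.63 and 2.80 CPM (stereotypy) and 5.48, 3.39 and 3.84 CPM (no stereotypy). All 6 deleted libraries lay above all 3 controls, as in 6.05% of tested genes. The log2 difference was 1.49 (SE 0.22, limma adjusted p = 0.00386), with nearly equal means of 4.32 ± 1.38 and 4.24 ± 1.10 CPM in the deleted groups (SD, n = 3 each). Like the 6 genes, Vdr had a low control mean, 0.880 ± 0.487 CPM. Of its controls only replicate 1 reached 1 CPM, so Vdr passed the filter on low values through the deleted libraries, where it was higher. The gene that fell was Calb1 (chromosome 4, 15881264 to 15908064), a cytosolic calcium-binding protein of both transporting epithelia and medium spiny neurons. Calb1 levels were 406, 305 and 312 CPM (control), 239.6, 240.1 and 286 CPM (stereotypy) and 159, 179.5 and 124 CPM (no stereotypy). All deleted libraries lay below all controls, as in 3.25% of tested genes. Its log2 difference was -0.78 (SE 0.13, limma adjusted p = 0.00740). Both calls held without any single library and were lost with the glial and vascular covariate (adjusted p = 0.929 for Vdr and 0.949 for Calb1), a fit in which 7 of 13695 genes passed in all.

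The 6 genes lie on 6 different chromosomes, and their protein-coding neighbours within 100 kilobases were read for the same contrast. Of 19 such genes 8 were tested, and 2 rose and 0 fell (5 at an unadjusted p under 0.05), with a median log2 difference of 0.45 against 0.04 over all tested genes. Of all tested genes 3.67% rose and 20.4% had an unadjusted p under 0.05. Within 500 kilobases 42 were tested, 5 rose, 0 fell and the median was 0.11. Sulf1, an extracellular sulfatase of heparan sulfate, lies 5356 bases from Slco5a1 with the ends of the 2 genes facing each other. Sulf1 levels were 21.4, 12.1 and 24.2 CPM (control), 28.8, 40.3 and 24.3 CPM (stereotypy) and 54.9, 46.4 and 62.1 CPM (no stereotypy). Its log2 difference was 1.09 (SE 0.21, limma adjusted p = 0.0141). The lowest deleted library just exceeded the highest control, and the call was lost without the filter (0.0548) and with the glial and vascular covariate (0.982).

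Ephb6, an Eph receptor without kinase activity, ends 114 bases from the end of Trpv6 on the opposite strand. Ephb6 averaged 164 ± 13.1, 191 ± 4.32 and 238 ± 20.6 CPM (SD, n = 3 each). Its log2 difference was 0.38 (SE 0.0786, limma adjusted p = 0.0196), a call that ended when control replicate 2 (0.0604) or stereotypy replicate 2 (0.0554) was left out and in the fit with the glial and vascular covariate (0.973). For Trpv6 the mean of both deleted groups was 5.32 times control. The strand setting of the read counting is not given in the sources used here, and the share of Trpv6 reads that could come from past the end of Ephb6 was not tested. The unnamed gene model Gm19410, 6664 bases from Cldn23, stood at 117 ± 36.4, 207 ± 21.8 and 164 ± 31.0 CPM (SD, n = 3 each) and did not pass (0.70, limma adjusted p = 0.0588). Its adjusted p covered 0.0395 to 0.133 in limma without single libraries and 0.0170 to 0.955 across the alternatives. Klf11, a zinc-finger transcription factor 3043 bases from Cys1, had a log2 difference of -0.00974 (limma adjusted p = 0.983). As with Sulf1 and Slco5a1, the ends of Gm19410 and Cldn23 and of Klf11 and Cys1 face each other. Reads from past the ends of these neighbours were not tested either. On the other side of Cys1, 26427 bases away, Rrm2, a ribonucleotide reductase subunit, had a log2 difference of 0.58 and did not pass (limma adjusted p = 0.0695, 0.0487 with DESeq2). All 6 deleted libraries of Rrm2 lay above all 3 controls (0.356, 0.481 and 0.920 CPM), and with no control at 1 CPM it was tested through the deleted libraries alone. Cd177, the closest on one side of Ceacam10, averaged at most 0.0492 CPM in any group, and Fcrls and Cd1d1, the closest to Kirrel, did not pass the filter. The single gene that overlaps any of the 6, the non-coding Gm37855 within Kirrel on the opposite strand, was listed at 0.

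**Figure D5:**
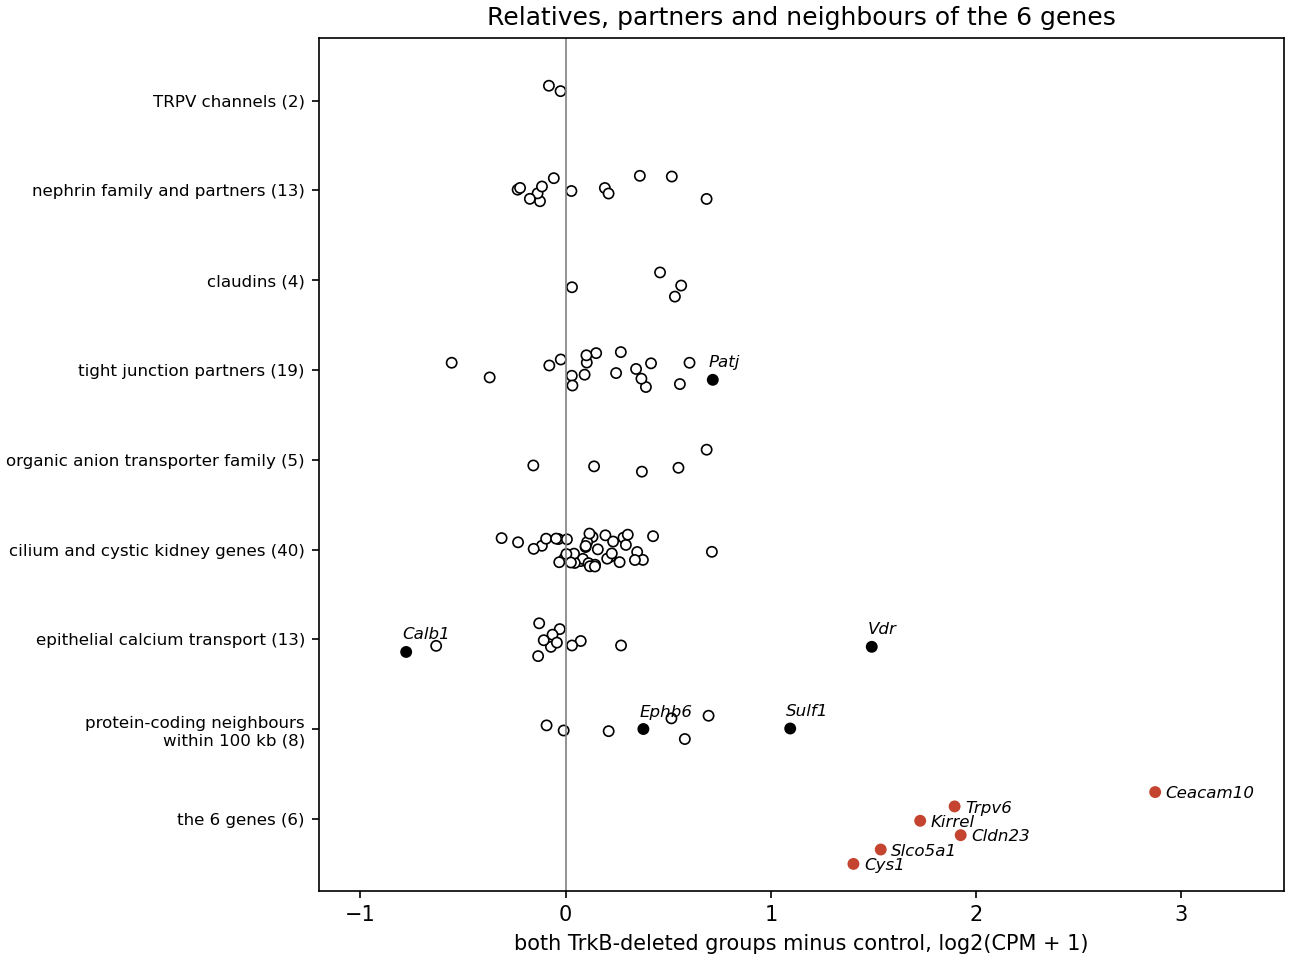
Both deleted groups minus control on the log2(CPM + 1) scale (horizontal) for the tested genes of each list and the tested neighbours (vertical, with their number), without the 6 genes, which are set below in red as a description. Filled points passed in limma. Patj, Vdr, Calb1, Ephb6 and Sulf1 are the filled points, and Vdr at 1.49 is the one that reaches the range of the 6 genes.

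The genes whose pattern over the 9 libraries was most like each of the 6 were found by Pearson r of log2(CPM + 1) among 11844 other tested protein-coding genes. Ceacam10 and Slco5a1 were closest to each other (r = 0.988), and for both the next was Plce1, a phospholipase C (r = 0.983 and 0.986), at 7.33, 43.6 and 42.1 CPM on average in the 3 groups. Kirrel was closest to Fam196b (r = 0.986), at 1.21, 5.73 and 6.67 CPM, and then to Slco5a1 (0.982). Trpv6 was closest to Tbc1d2, a Rab GTPase-activating protein (0.983), at 1.04, 2.39 and 2.45 CPM, and to the zinc-finger transcription factor Sp7 (0.981), at 0.737, 1.81 and 2.31 CPM. Cldn23 was closest to Syne2, a nuclear envelope protein (0.990), at 8.05, 17.8 and 19.9 CPM, and to Pacsin2, an endocytic adaptor (0.983), at 59.97, 116 and 135 CPM. Cys1 was closest to Magee2 (0.982), at 7.46, 14.3 and 18.2 CPM, and to the MYC family member Mycl (0.978), at 4.96, 12.03 and 15.9 CPM, both with the group without stereotypy on top. These r values share the same 9 libraries and the same step between genotypes and carry no test.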

How the data were processed

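RNA bound to tagged ribosomes was measured in 9 libraries, 3 per group, grouped by the labels' titles. The authors deposited 1 table of CPM per library, in which values sum to 1000000. Alignment was by TopHat against GRCm38, per the submitters' processing notes. Which counter and annotation were used, and whether strand was used, is not given in the sources used here. Of the deposited values 100% of those above 0 were whole multiples of 1 read (tolerance 0.1 reads), so whole reads were recovered. GENCODE M21 (GRCm38) gave symbols and positions and matched 47310 of 47729 identifiers, and promoters from RefSeq (GRCm38.p6).

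Genes with at least 1 CPM in 3 libraries were tested (13695) in 1 limma fit (limma 3.58.1, R 4.3.3) of log2(CPM + 1) on 3 group means with trended variances (6 residual degrees of freedom). This scale understates changes of low genes. Two-sided p-values of limma's moderated tests with Benjamini-Hochberg adjustment (threshold 0.05) were used. They set a difference between groups against the spread between libraries within groups. How many animals that spread covers is not given. The fit was checked on simulated reads. Alternatives were pseudocounts 0.25 and 4, no filter, median-of-ratios rescaling, a replicate block, leaving out each library, a glial and vascular covariate (first component of those markers), and edgeR 4.0.16 and DESeq2 1.42.0 on the recovered reads, where edgeR called 729 genes for both deleted groups against control.

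The 6 genes, the lists and the tests were chosen with earlier results of these data known. Beside the 6 genes and Ntrk2, genes are named where they passed in a list (at most 4), had the highest mean of a list, were the closest protein-coding neighbour, had a pattern among the 2 most alike, or stood next to the 5 CPM limit. The text names a part of these.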

Additional observations from a re-analysis of the deposited data

Results flagged for a closer look

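Cys1 is set apart because its rise over control differed between the deleted groups in a direct test, with a log2 difference of -0.54 (stereotypy minus no stereotypy, limma adjusted p = 0.0364, lower in 3 of 3 stereotypy libraries than in any library without stereotypy). Among all tested genes 10.2% were called in this comparison and 17.5% had all stereotypy libraries below the others. The call of Cys1 ended without any 1 of 5 of the 9 libraries, without the filter on low values and with the glial and vascular covariate. The groups of 3 libraries are too small for a test of single outlying libraries.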

How the results depend on the processing

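The rule chose the 6 genes for lying above control in these same libraries, so their differences from control are given here as a description. They stayed above control under every alternative run. Their median log2 difference, 1.81, was 2.07 with a pseudocount of 0.25, 1.15 with 4, 1.45 with the glial and vascular covariate, 2.12 with edgeR and 2.13 with DESeq2, and 1.72 to 1.89 without single libraries. The pseudocount changes the scale by construction. The number of the 6 called between the deleted groups, 1, was 0 without the filter and with the covariate, and 0 to 1 without single libraries. Of the 3 relatives called, 0 remained in number with the covariate and there were 6 with DESeq2 (2 to 4 without single libraries). Of 2 neighbours called, the number was 1 without the filter, 0 with the covariate, 4 with DESeq2, 5 within 500 kilobases, and 1 to 4 without single libraries. Over all genes the count for both deleted groups against control, 784, was 392, 7 and 1326 without the filter, with the covariate and with DESeq2 (414 to 732 without single libraries). Between the deleted groups it went from 1398 to 572, 1 and 2343 (0 to 1988 without single libraries, 1 without stereotypy replicate 2 and 0 when stereotypy replicate 3 or either of the first 2 no-stereotypy replicates was left out). Causes were not tested.

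Replicate numbers did not pair the libraries across all 3 groups. Deviations of same-numbered libraries correlated at -0.0798 to 0.41, over 0.1 in 4 of 9 pairs. The highest values, 0.34 and 0.41, were between control and no stereotypy for replicates 2 and 3, and a pairing of those libraries was not tested. In all, 3 of 9 libraries correlated best with their own number in both other groups. With the replicate block 1 of the 6 genes, 4 relatives, 2 neighbours, and 880 and 1788 genes passed.

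Signs turned for small differences that had not passed. Between the deleted groups the covariate gave -0.14 for Ceacam10 and -0.0486 for Slco5a1. Without single libraries the range was -0.0264 to 0.26 for Slco5a1 and -0.29 to 0.0665 for Kirrel. Against control, Cldn12, the polarity kinase Prkci and the ciliary motor Kif3a turned with rescaling (-0.0182, -0.0164 and -0.00522), edgeR (-0.0130, -0.0294 and -0.00644) and DESeq2 (-0.00892, -0.0256 and -0.00272). With the covariate Prkci was -0.0413, Kif3a -0.13 and the gene model Gm9844 -0.0656. Without single libraries the ranges were -0.29 to 0.0283 for Trpv2, -0.0132 to 0.0849 for Cldn12, -0.13 to 0.13 for Prkci, -0.0103 to 0.11 for Kif3a, -0.11 to 0.00788 for the calcium pump Atp2b1, -0.00250 to 0.35 for Gm9844 and -0.13 to 0.0920 for Klf11. Ceacam10 in the controls rests on 30 reads, which limits the precision of its fold.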

Other observations

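Between the deleted groups 13 of the 96 tested relatives of the 6 genes were higher with stereotypy, 1 was lower and 82 did not pass in limma, where 6.61% of all tested genes were higher and 3.6% lower. No relative passed when stereotypy replicate 2 or 3 or no stereotypy replicate 1 or 2 was left out, or with the glial and vascular covariate, and 3 were higher and 1 lower without the filter on low values. The calls named next ended in the same 5 fits. The following were chosen after their values were seen. The organic anion transporter Slco1a4, a gene of brain vessels and itself in the vascular marker list, averaged 7.54 ± 2.0 CPM in stereotypy and 1.55 ± 0.764 CPM in no-stereotypy libraries (SD, n = 3 each, log2 difference 1.76, limma adjusted p = 0.0220). Slco1c1, a thyroid hormone transporter of vessels and astrocytes, stood at 7.59 ± 3.37 and 1.82 ± 0.586 CPM (1.56, adjusted p = 0.0228). Summed vascular markers were 47.8 to 109.8 CPM with stereotypy and 14.5 to 31.4 CPM without, and their part in these values was not tested. Of the cilium list 6 were higher and 1 lower with stereotypy. The lower one was the somatostatin receptor Sstr3, at 6.59 ± 2.48 and 16.7 ± 3.08 CPM (-1.27, adjusted p = 0.0331), and Cys1, which is not counted there, was lower as well. Without the filter the adjusted p was 0.0497 for Slco1a4, 0.0570 for Slco1c1 and 0.0821 for Sstr3, and that of Sstr3 was 0.0503 without stereotypy replicate 1 and 0.0698 without no stereotypy replicate 3.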
